A study of Homo sapiens with 8 samples.

Results

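The metallothionein genes of human chromosome 16 were examined in EndoC-βH5 cells left untreated or exposed to proinflammatory cytokines. The genes were taken as the protein-coding rows of the deposited expression table whose symbol belongs to the MT1 and MT2A family and whose chromosome is 16. This gave 3 genes, MT2A, MT1X and MT1F, of the 16525 genes in the table. MT1E, the remaining gene of the 4 named for this set, had no row in the table. Neither had 17 other metallothionein genes and pseudogenes, so none of these was analysed here. The 3 genes are those whose levels passed the authors' expression filter.

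The EndoC-βH5 line is a human beta-cell line from fetal pancreas, which was immortalised with transgenes that were later removed. RNA was sequenced from 4 untreated control libraries and from 4 libraries of cells exposed to IL-1β, IFNγ and TNFα together for 48 h. The labels do not say whether the libraries of a condition came from separate cultures, so the p-values measure the spread between these libraries, which may be partly technical. By their column names, every control library has 1 cytokine library as partner, and the pairs are lettered A to D. From the same names A and B form 1 series of libraries and C and D another.

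Metallothioneins are very short, cysteine-rich proteins of the cytosol and nucleus. Their cysteine thiols bind zinc and copper, and also toxic metals such as cadmium, and they are known as a buffer of free zinc and a scavenger of oxidants. Their genes are classically switched on by zinc through the sensor MTF1, which binds metal response elements close to the transcription start, and also by glucocorticoids, oxidative stress and inflammatory mediators. Beta cells are rich in zinc, which the transporter SLC30A8 loads into the insulin granules, where it crystallises with insulin.

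The coding sequences are shown because the cysteine codons define the family and because the likeness of the genes bears on how well their reads can be told apart. They were read from GENCODE 29 (GRCh38, + strand of chromosome 16), where each is spread over 3 exons, and run 5′ to 3′ with the in-frame cysteine codons in capitals.
MT2A: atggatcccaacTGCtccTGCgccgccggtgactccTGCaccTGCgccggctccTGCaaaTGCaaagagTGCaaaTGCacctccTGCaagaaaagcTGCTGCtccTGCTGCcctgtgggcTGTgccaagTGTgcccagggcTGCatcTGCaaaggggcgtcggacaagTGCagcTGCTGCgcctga
MT1X: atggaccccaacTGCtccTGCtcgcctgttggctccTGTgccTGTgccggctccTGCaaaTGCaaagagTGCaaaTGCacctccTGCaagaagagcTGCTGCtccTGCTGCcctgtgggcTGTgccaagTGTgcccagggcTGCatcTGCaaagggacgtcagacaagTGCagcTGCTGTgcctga
MT1F: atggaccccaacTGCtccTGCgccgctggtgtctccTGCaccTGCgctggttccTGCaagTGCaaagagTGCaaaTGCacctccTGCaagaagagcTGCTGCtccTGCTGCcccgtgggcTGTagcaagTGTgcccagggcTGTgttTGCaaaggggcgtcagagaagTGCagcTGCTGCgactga
Each has 186 bases and encodes 61 amino acids, of which 20 (32.8%) are cysteines, and all 20 cysteine codons stand at the same positions in the 3 genes. MT2A and MT1X share 172 of the 186 bases (92.5%), MT2A and MT1F 170 (91.4%), and MT1X and MT1F 165 (88.7%). No stretch of 100 bases, the length of a read, of the MT2A transcript (786 bases) or the MT1F transcript (690 bases) occurred unchanged in a transcript of another gene. In the MT1X transcript (450 bases) 67 of 351 such stretches (19.1%) also occurred in AC026461.1, a gene on the same strand that covers 321 of the 1773 exon bases of MT1X (18.1%). The values of MT1X are therefore less certain, since reads from these bases cannot be given to either gene.

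The promoters are shown because the metal response elements lie there. RefSeq's promoter table (GRCh38.p14), which runs from 250 bases before the start of a gene to 50 bases after it, had entries that matched 2 of the 3 genes, MT2A at chr16:56608334-56608633 and MT1X at chr16:56682220-56682519, both on the + strand. The capitals mark the core of the metal response element, searched on both strands as TGCACNC or TGCGCNC, where N is any base.
MT2A: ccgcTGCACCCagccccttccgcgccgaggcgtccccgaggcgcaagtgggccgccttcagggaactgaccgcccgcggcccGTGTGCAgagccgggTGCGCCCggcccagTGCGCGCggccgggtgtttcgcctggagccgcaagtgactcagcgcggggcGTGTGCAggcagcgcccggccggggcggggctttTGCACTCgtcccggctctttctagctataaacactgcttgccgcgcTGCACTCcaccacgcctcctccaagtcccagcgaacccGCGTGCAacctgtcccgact
MT1X: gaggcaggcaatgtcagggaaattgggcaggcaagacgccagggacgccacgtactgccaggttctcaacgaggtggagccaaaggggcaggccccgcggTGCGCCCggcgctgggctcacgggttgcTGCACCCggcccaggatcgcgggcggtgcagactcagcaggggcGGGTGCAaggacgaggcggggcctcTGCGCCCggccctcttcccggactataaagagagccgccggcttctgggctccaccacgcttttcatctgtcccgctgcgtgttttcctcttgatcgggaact
The MT2A promoter held 8 matches that did not overlap each other and the MT1X promoter held 4. Of the 35116 promoters in the table, 29.6% held at least 1 match, 0.601% held 4 or more and 0.0199% held 8 or more. MT2A also had 1 match each to the GAS motif of STAT factors (TTCNNNGAA, in 7.66% of all promoters), to the AP-1 motif (TGANTCA, 7.71%) and to the core of the antioxidant response element (TGACNNNGC, 13.3%), of which the last 2 started at the same base and overlap. MT1X had 1 match to the antioxidant response element core and none to the GAS or AP-1 letters in this window. These matches describe the sequence and are not evidence of binding.

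The deposited values are CPM, the reads of a gene relative to all reads of the library, and are not divided by gene length. In each library 100% of the values were whole multiples of 1 read to within 0.01 read, so the reads behind each value could be recovered. Between 36577438 and 40117636 reads fell on the listed genes, 1 read was worth 0.0196 to 0.0214 CPM, and a count of 0 would allow up to 3 reads. The share of reads counted elsewhere was highest in pair D, at 26.6% in the control and 26.5% in the cytokine library. All 12 beta-cell markers chosen for the check of the cell type were in the table, as were the 4 alpha-cell and 3 delta-cell markers. In control libraries A to D the delta-cell gene SST was 1761, 2143, 615 and 355 CPM. The alpha-cell gene GCG was 19.8, 27.2, 222 and 104 CPM there, so both differed between A and B and C and D, in opposite directions. Of the acinar, ductal, stromal, endothelial and immune markers 1 of 6, 1 of 4, 2 of 6, 0 of 3 and 1 of 5 were listed. Of the 12 beta-cell markers 7 were called lower (against 2896 of all 16525 genes) and none higher, with a median log2 fold change of -0.62. Their summed level was 7851 to 12608 CPM in control and 9559 to 17157 CPM in cytokine libraries. IAPP had the highest mean of the 12 (4102 ± 1844 and 7787 ± 3443 CPM, SD, n = 4 each). It was not called in the main limma fit or after TMM scaling, but was called higher with the pairs as a block. The edgeR fit with TMM scaling and no block also called IAPP higher (log2 fold change 1.10). Of the non-beta markers, the alpha-cell gene IRX2 was called higher (log2 fold change 0.91, adjusted p = 0.00166, limma) and the acinar gene CPA1 lower (log2 fold change -1.06, adjusted p = 0.00201, limma). With the pairs as a block, GCG of the alpha-cell list was also called lower (-1.47, adjusted p = 3.89e-05, limma) and PPY of gamma cells higher (0.69, adjusted p = 0.0471, limma). Their part in the results was not tested, and in such bulk RNA a change in the number of cells of a type and a change in RNA per cell cannot be told apart.

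MT2A, MT1X and MT1F were all higher after cytokine exposure, but by very different amounts. MT2A went from a level near the bottom of the table to a mean of 47.8 CPM, while MT1X and MT1F stayed below 3 CPM in every library. Differences were tested with limma on log2(CPM + 0.1) over all genes, and called genes are those with a Benjamini-Hochberg adjusted p below 0.05 that changed by more than 0.5 on the log2 scale. All 3 genes were called higher, as were 9.52% of the 16525 genes tested, and 27.0% of genes were called in either direction. In all 3 genes every cytokine library lay above every control library, which held for 10.8% of all genes. The deposited genes had to exceed 0.5 CPM in at least 4 samples. Control library A of MT2A (0.299 CPM) and control libraries C and D of MT1X (0.139 and 0.235 CPM) were below this. These 2 genes are thus listed only through treated libraries, whereas MT1F passed in its control libraries alone. Such a filter favours members that rise, so that all 3 were higher is partly set by it. Over all genes the median log2 fold change was -0.17 on the CPM scale and -0.02 after TMM scaling, a method that corrects for differences in RNA composition. With it, the share of called genes that were lower moved from 64.8% to 47.3%. The 3 genes were called higher on both scales.

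MT2A (ENSG00000125148, chromosome 16, 56608199 to 56609497), the only MT2 gene of the set and usually the most abundant metallothionein of human cells, had the largest response. Its level in control libraries A to D was 0.299, 0.720, 0.677 and 0.606 CPM, from 14 to 34 reads. In cytokine libraries A to D it was 46.9, 46.6, 47.1 and 50.5 CPM, from 2184 to 2511 reads. The groups lay far apart, control library A was the lowest of the controls, and the cytokine libraries were very even. The coefficient of variation was 33.0% in control and 3.74% in cytokine libraries. The mean rose from 0.575 ± 0.190 CPM to 47.8 ± 1.79 CPM (SD, n = 4 each), a ratio of 83.0. The log2 fold change was 6.20 with a standard error of 0.23 (adjusted p = 1.49e-08, limma), and 39 genes of the table had a larger one. By pair, the cytokine to control ratio on the CPM scale was 157 in A, 64.8 in B, 69.7 in C and 83.2 in D, where the high ratio of A goes with its low control value. Among all genes ordered by mean CPM, MT2A moved from rank 15762 in control to rank 3443 in cytokine libraries.

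MT1X (ENSG00000187193, chromosome 16, 56682424 to 56684196), a metallothionein of the MT1 subfamily, had the lowest mean of the 3 in control cells. Its level was 0.535, 0.614, 0.139 and 0.235 CPM in control libraries A to D, from 7 to 29 reads. In cytokine libraries A to D it was 1.15, 2.50, 0.906 and 1.08 CPM, from 45 to 117 reads. The groups did not overlap, and cytokine library B stood well above the other three. Within the controls, A and B (mean 0.574 CPM) lay above C and D (mean 0.187 CPM). The mean rose from 0.381 ± 0.229 CPM to 1.41 ± 0.733 CPM (SD, n = 4 each), a ratio of 3.70. This gave a log2 fold change of 1.68 with a standard error of 0.42 (adjusted p = 0.0118, limma). Leaving out cytokine library B lowered it to 1.39 (adjusted p = 0.0330, limma). The pairs A to D gave log2 fold changes of 0.98, 1.86, 2.07 and 1.82. The size of this value depends on the pseudocount, because the counts are low, and it was 1.09 with 0.5 CPM and 0.78 with 1 CPM added in place of 0.1, the call being kept with both.

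MT1F (ENSG00000198417, chromosome 16, 56657694 to 56660698), also of the MT1 subfamily, had the smallest log2 fold change of the 3. Its level was 0.663, 1.35, 1.57 and 1.02 CPM in control libraries A to D, from 31 to 79 reads. In cytokine libraries A to D it was 1.85, 2.11, 1.91 and 2.29 CPM, from 87 to 114 reads. The highest control library, C, lay just under the lowest cytokine library, A. The mean rose from 1.15 ± 0.398 CPM to 2.04 ± 0.200 CPM (SD, n = 4 each), a ratio of 1.77. The log2 fold change was 0.83 with a standard error of 0.27 (adjusted p = 0.0367, limma), with 1.36, 0.61, 0.27 and 1.10 in pairs A to D. This call is near the threshold. It was lost when control library A was left out (0.61, adjusted p = 0.0707, limma), without control library D (0.80, adjusted p = 0.0835, limma), and without any 1 of the cytokine libraries (0.78 to 0.87, adjusted p from 0.0584 to 0.0898, limma). It was 0.52 with 1 CPM added in place of 0.1, still called.

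**Figure D1:**
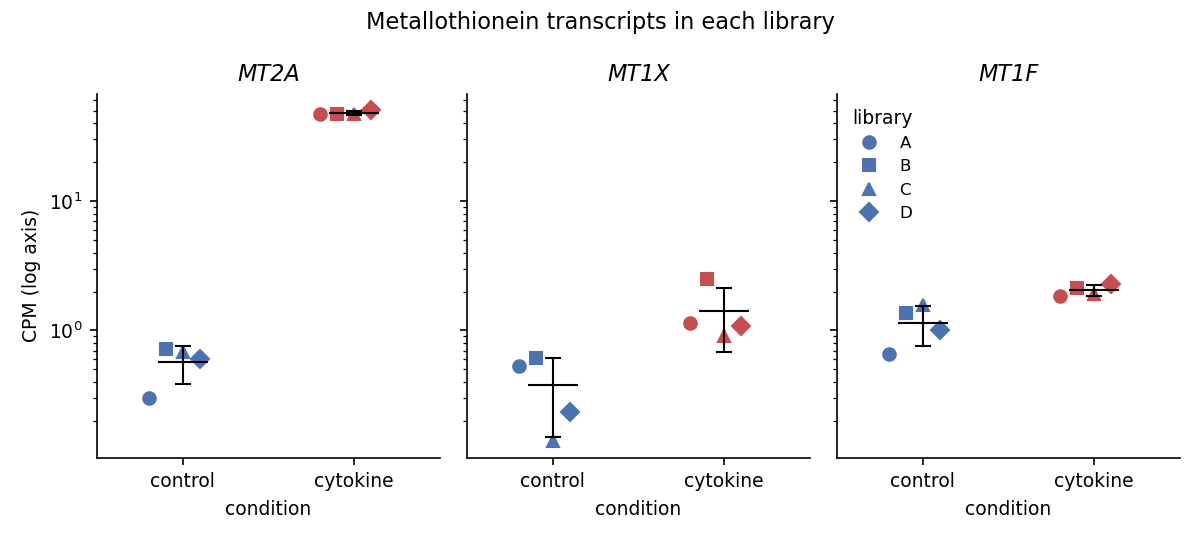
Level of MT2A, MT1X and MT1F in CPM (log axis) in the 4 control (blue) and 4 cytokine libraries (red), with a marker shape for each pair A to D and the mean with its SD in black. MT2A went from a mean of 0.575 to 47.8 CPM, whereas the groups of MT1X (0.381 and 1.41 CPM) and MT1F (1.15 and 2.04 CPM) lay close to each other without overlap.

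For each gene on its own, a 2-sided exact permutation test of 4 against 4 libraries gave p = 0.0286, the smallest that its 70 permutations allow. The quasi-likelihood test of edgeR, run on the reads after TMM scaling, also called all 3 genes higher, against 13.0% of all genes, with log2 fold changes of 6.53 for MT2A, 2.02 for MT1X and 0.99 for MT1F (adjusted p = 1.69e-08, 0.0178 and 0.0181, edgeR). With a block for pairs, limma's adjusted p of MT1F was 0.00522.

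**Figure D2:**
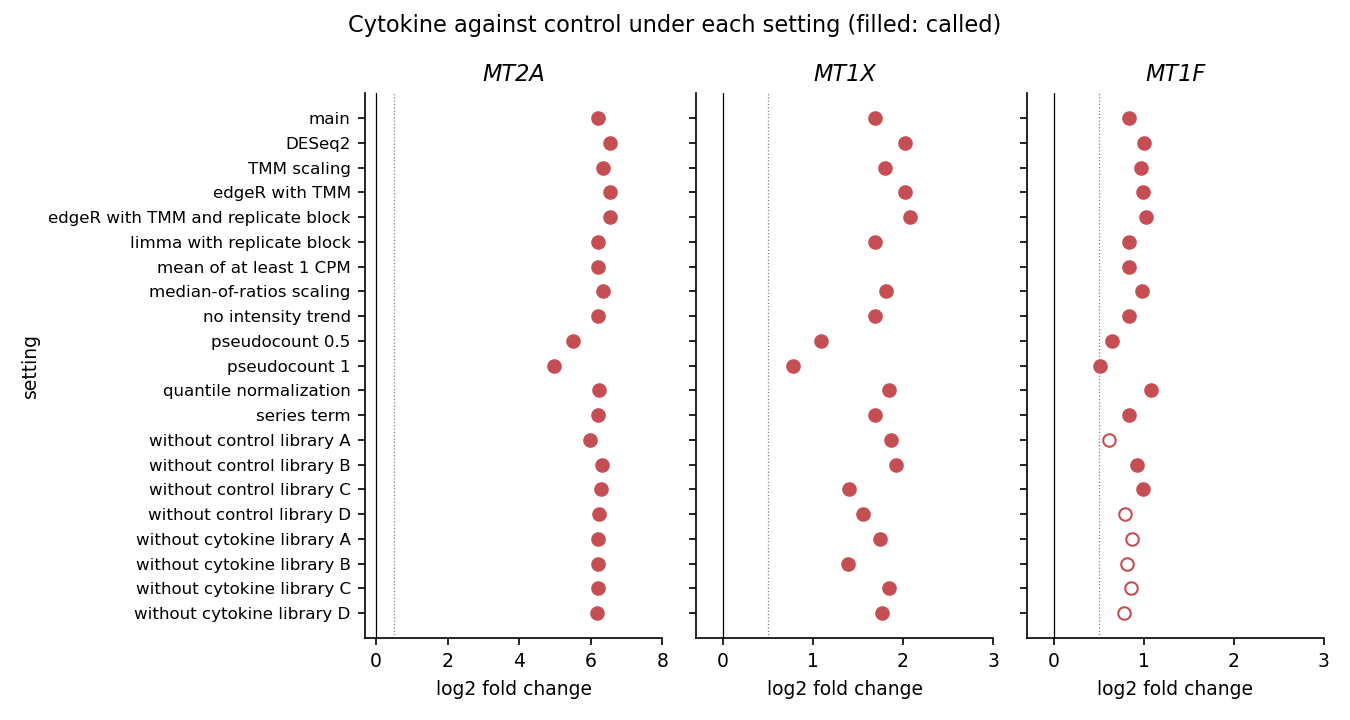
Log2 fold change of the 3 genes, cytokine against control, under the main fit (top row) and each alternative, on an axis of its own for each gene, where filled points passed the thresholds and the dotted line marks 0.5. MT2A and MT1X were called wherever they were tested (MT1X was not tested where low genes were removed), while MT1F lost its call in 6 of the 8 fits that left out 1 library.

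The responses of the 3 genes were then compared with each other through the log2 ratio of a pair of genes in each library. The ratio of MT2A to MT1X was higher by 4.52 on the log2 scale in cytokine than in control libraries, with a range of -0.67 to 1.70 in control and 4.17 to 5.55 in cytokine libraries. The ratio of MT2A to MT1F was higher by 5.37, from a range of -1.11 to -0.66 to one of 4.40 to 4.59. Both differences had p = 0.0286 (2-sided exact permutation test) and 0.0429 after Benjamini-Hochberg adjustment over the 3 pairs compared. The ratio of MT1X to MT1F was higher by 0.85 with overlapping ranges (p = 0.229, adjusted 0.229, exact permutation test), so a difference between these 2 responses was not detectable with 4 libraries per condition. This value was unstable, at 0.40 without control library C, 0.57 without cytokine library B and 1.25 without control library A. With 1 CPM added it was 0.26 and did not pass (adjusted p = 0.4, exact permutation test). The fits that left out a library compared 3 with 4 libraries, too few for this test to pass, so they do not decide the question. Among them the adjusted p was lowest without control library A, at 0.0571 (exact permutation test).

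To compare levels between genes, the reads were divided by exon length and rescaled to the same total in each library (TPM). In control libraries the order was MT1F at 2.37 ± 0.959 TPM, MT2A at 1.72 ± 0.645 TPM and MT1X at 0.773 ± 0.385 TPM (SD, n = 4 each), and neighbours in this order had overlapping ranges. In cytokine libraries MT2A led with 153 ± 23.0 TPM, followed by MT1F at 4.51 ± 0.854 TPM and MT1X at 3.21 ± 1.40 TPM (SD, n = 4 each). The ranges of MT2A and MT1F did not overlap there, at 134 to 182 and 3.65 to 5.67 TPM, whereas those of MT1F and MT1X did. The order of the means was the same with the length of the longest transcript (903 bases for MT2A, 1727 for MT1X and 1573 for MT1F). The transcripts whose coding sequences are shown are shorter, at 786, 450 and 690 bases. Their lengths were not used here, and the order of genes with overlapping ranges could differ with them.

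Together the 3 genes had 70 to 127 reads in a control library (2.11 ± 0.533 CPM, SD, n = 4) and 2344 to 2679 reads in a cytokine library (51.2 ± 1.83 CPM, SD, n = 4). MT2A took 26.9% ± 5.24 of these reads in control and 93.3% ± 1.53 in cytokine libraries (SD, n = 4 each). The share of MT1F went from 53.8% ± 9.09 to 3.98% ± 0.253 and that of MT1X from 19.3% ± 13.0 to 2.75% ± 1.43 (SD, n = 4 each). MT1F had the largest share in all 4 control libraries, from 44.3% to 65.8%, and MT2A in all 4 cytokine libraries.

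**Figure D3:**
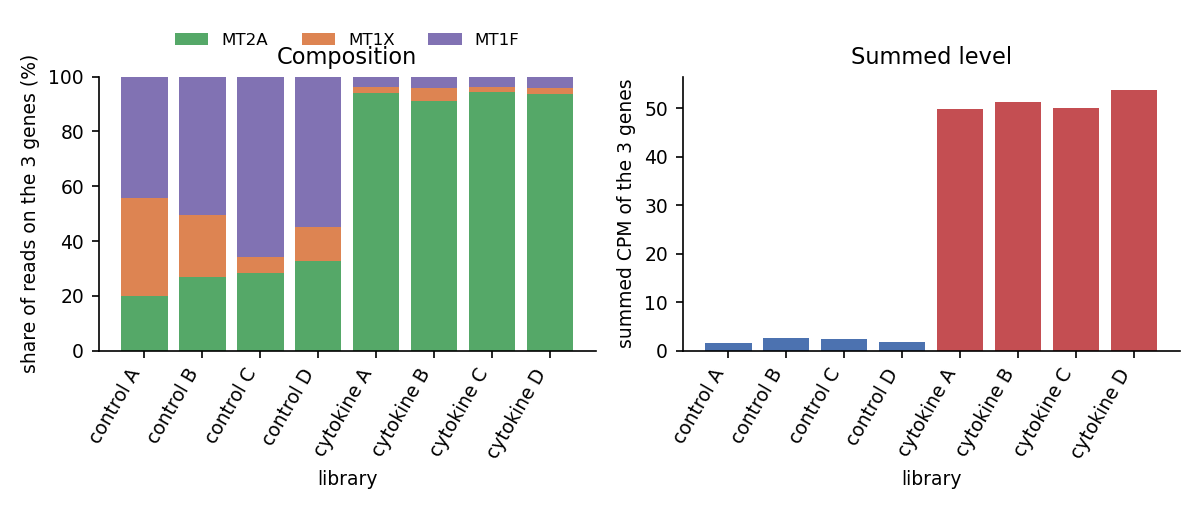
Left, share of the reads on the 3 genes that fell on MT2A, MT1X and MT1F in each library (%). Right, their summed level in CPM, which was 2.11 on average in control (blue) and 51.2 in cytokine libraries (red). MT2A took 20.0% to 32.6% of the reads in control and 91.0% to 94.4% in cytokine libraries.

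The 2 series of libraries were compared because both conditions occur in each. The cytokine effect in C and D minus that in A and B was -0.31 for MT2A (SE 0.41), 0.53 for MT1X (SE 0.61) and -0.30 for MT1F (SE 0.52), with an adjusted p of 0.999 for each (limma interaction term). With 2 libraries per series and condition, 5 of all genes (0.0303%) passed in this test, and 488 had an unadjusted p below 0.05. Within A and B the log2 fold changes of MT2A, MT1X and MT1F were 6.36, 1.42 and 0.98, and within C and D they were 6.04, 1.95 and 0.68.

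Of 8 regulators linked to metal sensing and the induction of metallothioneins, 4 were called higher (against 9.52% of all genes) and none lower. Their median log2 fold change was 0.43 against -0.17 over all genes. MTF1, the zinc sensor itself, was 14.5, 15.2, 14.7 and 15.3 CPM in control libraries A to D and 24.0, 21.9, 20.3 and 19.9 CPM in cytokine libraries. The control values were very even and lay below all cytokine values. Its log2 fold change was 0.52 with a standard error of 0.12 (adjusted p = 0.00687, limma). This lies at the threshold of 0.5, and MTF1 was not called without cytokine library A (0.47) or with 1 CPM added in place of 0.1 (0.50, below the threshold). STAT3, which acts downstream of IL-6 type cytokines, rose most, from 94.3 ± 18.5 to 355 ± 65.3 CPM (SD, n = 4 each), by a log2 fold change of 1.92 (adjusted p = 1.33e-05, limma). The glucocorticoid receptor NR3C1 (0.94) and the E-box factor USF1 (0.96) were also called, at adjusted p = 0.00652 and 0.00155 (limma). NFE2L2, SP1, USF2 and CTCF were not called, with log2 fold changes from -0.18 to 0.34.

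Zinc transporters were mixed. Of the 10 genes of the SLC30 family of exporters, whose members mostly move zinc out of the cytosol, 8 were in the table. Of these 1 was called higher (against 9.52% of all genes) and 2 lower (against 2896 of all 16525 genes). Their median log2 fold change was -0.29, against -0.17 over all genes, and after TMM scaling it was -0.14 against -0.02. SLC30A8, the granule transporter of beta cells and the one with the highest mean CPM, was 422, 452, 622 and 524 CPM in control libraries A to D. In cytokine libraries A to D it was 216, 202, 204 and 254 CPM. All cytokine values lay below all control values, and the log2 fold change was -1.20 with a standard error of 0.15 (adjusted p = 0.000178, limma). SLC30A7, a transporter of the Golgi, rose from 9.84 ± 2.08 CPM to 18.03 ± 1.38 CPM (SD, n = 4 each), by a log2 fold change of 0.89 (adjusted p = 0.00220, limma). SLC30A3 was called lower (-0.64, adjusted p = 0.00361, limma), but not after TMM scaling (-0.49). SLC30A1, the exporter of the plasma membrane and, like MT2A, a known target of MTF1, was 20.4 ± 4.70 and 26.4 ± 2.40 CPM (SD, n = 4 each). Its log2 fold change of 0.40 was not called (adjusted p = 0.107, limma), although it was after TMM scaling (0.55, adjusted p = 0.0141, limma).

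Of the 14 importers of the SLC39 family, which bring zinc into the cytosol, 12 were in the table. None was called higher and 2 were called lower (against 2896 of all 16525 genes), 4 with the pairs as a block (against 3935 of all genes). The median log2 fold change was -0.31, and -0.17 after TMM scaling. SLC39A10 fell from 14.03 ± 5.03 to 7.09 ± 2.24 CPM (SD, n = 4 each), by a log2 fold change of -0.96 (adjusted p = 0.0275, limma). The call was lost without control library C or D and without cytokine library A or B (-0.91 to -0.76, adjusted p from 0.0667 to 0.0749, limma). SLC39A3 was called lower at -0.58 (adjusted p = 0.00584, limma), but not after TMM scaling (-0.43) or without control library C, where it fell just short of 0.5 in size. SLC39A7, the importer with the highest mean over all 8 libraries, was 102 ± 29.9 and 124 ± 30.4 CPM (SD, n = 4 each), with overlapping ranges.

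Copper and thiol genes mostly did not pass the test. Of 10 copper-handling genes 1 was called higher (against 9.52% of all genes), 2 with the pairs as a block (against 1917 of all 16525 genes). The median of these genes was 0.02. The called gene was SCO2, a copper chaperone of cytochrome c oxidase, which rose from 5.47 ± 1.13 CPM to 17.8 ± 0.719 CPM (SD, n = 4 each), by a log2 fold change of 1.70 (adjusted p = 2.36e-05, limma). SLC31A1, the copper importer of the plasma membrane, had the highest mean CPM of the list, at 28.8 ± 9.21 and 35.3 ± 9.32 CPM (SD, n = 4 each). For 11 genes of the glutathione and thioredoxin systems the median was -0.10, or 0.05 after TMM scaling. Among them 2 were called higher (against 9.52% of all genes). These were GLRX, glutaredoxin (7.40 ± 2.27 to 17.1 ± 1.31 CPM, log2 fold change 1.24, adjusted p = 0.000886, limma) and SLC7A11, the cystine importer (0.0949 ± 0.0793 to 0.568 ± 0.312 CPM, log2 fold change 1.75, adjusted p = 0.0146, limma). SLC7A11 had 0 to 9 reads in control libraries, and its log2 fold change was 2.70 in edgeR and 0.50, below the threshold and no longer called, with 1 CPM added. GPX4, the gene of this list with the highest mean CPM, was not called, with a log2 fold change of 0.08 (adjusted p = 0.756, limma).

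Of 9 genes known to respond to glucocorticoids, 8 were in the table, with a median of 0.82. Among them 5 were called higher (against 9.52% of all genes) and 1 lower (against 2896 of all 16525 genes). DUSP1, a phosphatase of MAP kinases, rose from 12.4 ± 2.39 CPM to 84.5 ± 18.7 CPM (SD, n = 4 each), by a log2 fold change of 2.76 (adjusted p = 1.39e-06, limma). CEBPD (1.72), PER1 (1.17), SGK1 (1.14) and ERRFI1 (0.51) were also called higher. SGK1 lost its call without control library A, C or D and without cytokine library C or D (adjusted p up to 0.0967, limma). ERRFI1 lost it without control library A or D or cytokine library C (0.44 to 0.49) and with 0.5 or 1 CPM added (0.50, below the threshold, and 0.49). PER1, with the highest mean CPM of this list, was 80.7 ± 17.3 and 180 ± 24.3 CPM (SD, n = 4 each). TSC22D3, a glucocorticoid-induced regulator, was called lower (-0.95, adjusted p = 0.00167, limma), and FKBP5 was not called (-0.25, adjusted p = 0.409, limma). Several of the higher genes are also known to respond to inflammatory or stress signals, and no list was tested against the other genes.

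**Figure D4:**
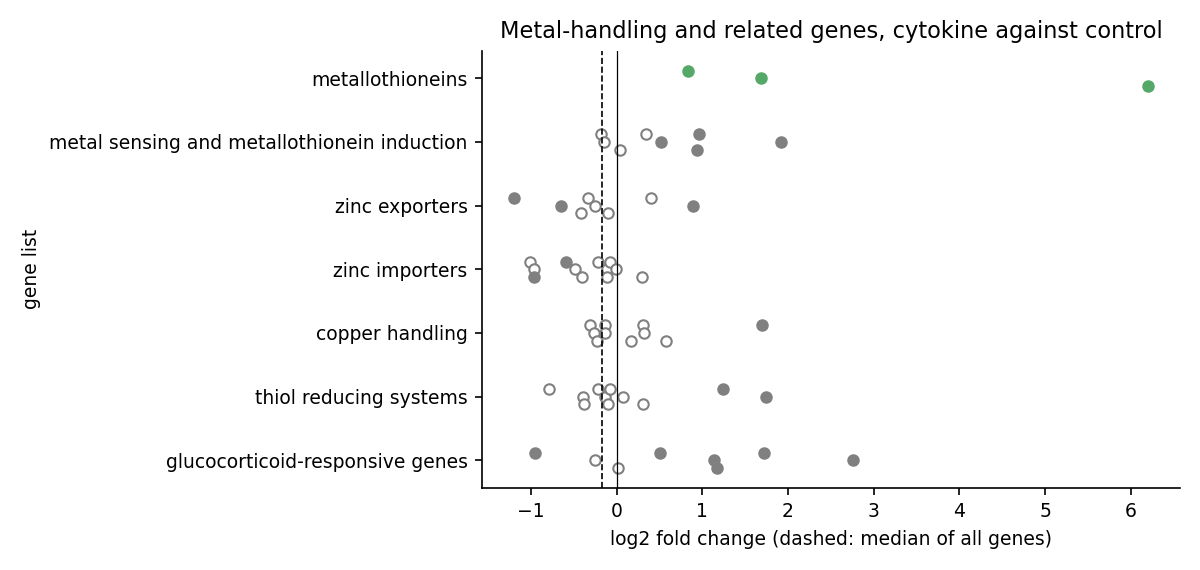
Log2 fold change, cytokine against control, of the 3 metallothioneins (green) and of the genes of each list (grey), where filled points were called and the dashed line is the median of all genes, -0.17. MT2A at 6.20 lies beyond every gene of the lists, the highest of which is DUSP1 at 2.76.

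The table held 13 other genes within 500 kb of the span of the 3 metallothioneins. Of these 3 were called higher and 1 lower, where 9.52% of all genes were called higher and 27.0% in either direction. Their median log2 fold change was 0.11. The nearest listed genes were not called, namely BBS2 (-0.13) and OGFOD1 (0.30) upstream of MT2A and NUP93-DT (0.84, adjusted p = 0.173, limma) and NUP93 (0.29) downstream of MT1X. Only NUP93-DT among these was called with the pairs as a block (adjusted p = 0.0478, limma). NLRC5, an activator of the genes of MHC class I whose start lies 381 kb from that of MT2A, rose from 2.06 ± 1.37 CPM to 420 ± 54.4 CPM (SD, n = 4 each), by a log2 fold change of 7.80 (adjusted p = 6.45e-08, limma). HERPUD1, a gene of the response to stress of the endoplasmic reticulum, was called higher at 0.91 (adjusted p = 0.000541, limma). ENSG00000261270 was called higher at 0.95 (adjusted p = 0.0342, limma), but it lies inside HERPUD1 on the same strand and reads of the 2 may be mixed. Its call was lost in 6 of the 8 fits without 1 library, all but those without cytokine library B or C (adjusted p up to 0.0976, limma), and with 0.5 or 1 CPM added (0.50, below the threshold, and 0.31). CPNE2 was called lower at -1.19 (adjusted p = 0.000486, limma).

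**Figure D5:**
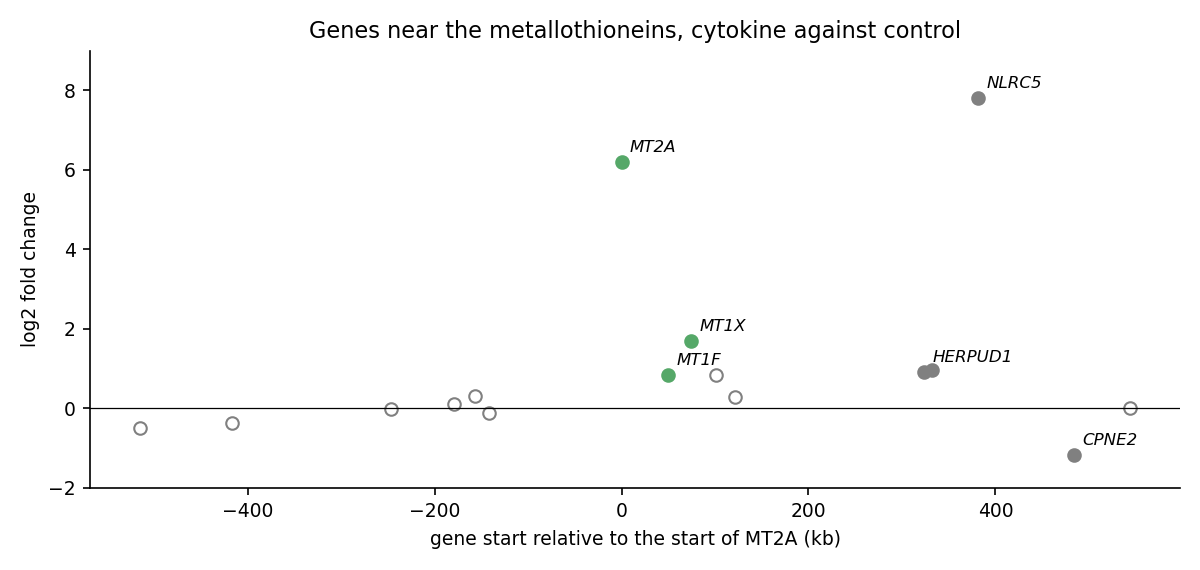
Log2 fold change, cytokine against control, of the 3 metallothioneins (green) and the 13 other genes listed within 500 kb (grey), by the distance of the gene start from that of MT2A in kb, where filled points were called. The 2 highest points are NLRC5 at 7.80 and MT2A at 6.20, and the genes next to the metallothioneins are open points between -0.13 and 0.84.

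The genes whose pattern over the 8 libraries was most like that of each member were found by the root mean square difference of log2(CPM + 0.1), centred on the mean of each gene, among genes averaging 1 CPM or more. The 3 nearest to MT2A were USP30-AS1 (0.113), RSAD2 (0.350) and IRF1 (0.351) of 14682 genes. USP30-AS1, an antisense lncRNA, went from 0.0554 ± 0.0412 CPM, at most 5 reads, to 10.8 ± 0.815 CPM, and RSAD2, the interferon-induced antiviral enzyme viperin, from 2.77 ± 1.04 to 154 ± 41.1 CPM (SD, n = 4 each). With so few control reads, the closeness of USP30-AS1 to MT2A depends on the pseudocount. Their log2 fold changes were 6.17 and 6.20 in the main fit, but 4.35 and 5.51 with 0.5 CPM added. With 1 CPM added they were 3.48 and 4.96, and in edgeR 7.68 and 6.53. In the same order MT1F had rank 897. MT1X averaged under 1 CPM and was not among the ranked genes, but would stand at rank 455.

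The 3 genes nearest to MT1X were TESK2 (0.276), BHLHE41 (0.321) and DDX47 (0.326), of which TESK2, a protein kinase, went from 2.68 ± 1.03 to 7.90 ± 2.13 CPM (SD, n = 4 each). MT1F had rank 1178 in that order and MT2A rank 14614 of 14683. The 3 nearest to MT1F were ENSG00000274698 (0.169), RAPGEF2 (0.172) and ARHGAP12 (0.194), and RAPGEF2, an exchange factor for Rap proteins, went from 17.1 ± 2.95 to 32.9 ± 2.07 CPM (SD, n = 4 each). MT1X, again not among the ranked genes, would stand at rank 11918 there, and MT2A had rank 14642 of 14682. The measure includes the size of the change, so the ranks of MT2A largely restate its larger response. The 3 nearest genes of each were unchanged with TMM scaling and the same pseudocount of 0.1 CPM. Other pseudocounts were not used for this measure.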

How the data were processed

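RNA from 4 control and 4 cytokine-treated samples of EndoC-βH5 was analysed. According to the methods and the submitters' processing notes, the authors aligned the reads with TopHat2 2.1.1 to GRCh38, counted them on Ensembl release 107 genes with HTSeq 0.9.1 and deposited CPM values of genes above 0.5 CPM in at least 4 samples. Of 12 columns of values, 4 were not used here. Reads of any 2 libraries of a condition differed beyond sampling noise (chi-square of 5.88 or more per gene), so none is a copy.

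Differences were tested with limma 3.58.1 (R 4.3.3), on CPM plus 0.1 on the log2 scale, with an intensity trend and adjustment over 16525 genes. The values were CPM and not the raw counts that the methods tested with edgeR, so DESeq2 1.42.0 and edgeR 4.0.16 served as alternatives on recovered reads, beside other scalings, pseudocounts of 0.5 and 1, a filter at a mean of 1 CPM, no trend, a series term, a replicate block and leaving out each library. TPM used exon lengths of GENCODE 29. Python 3.11.15, pandas 2.3.3, numpy 2.4.6, scipy 1.17.1 and matplotlib 3.10.9 were used. The fits were tested on simulated data. Limits given in reads cover counting error only.

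The members and lists were chosen with earlier results of these data known. Named were all members, all genes within 500 kb, and the 3 genes most like each member. Each list gave the called genes up to 6 by size of change and the gene of highest mean CPM. From the marker lists IAPP, IRX2, CPA1, GCG, PPY and SST were named after their values were seen. The pairing comes from the column names. Deviations from the mean of the condition correlated by 0.457 in pair A, 0.504 in B, 0.748 in C and 0.681 in D, but also by 0.447 for control A with cytokine B and by 0.489 for control B with cytokine A.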

Additional observations from a re-analysis of the deposited data

Results flagged for a closer look

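In 92 groups of 4 libraries, 1 for each named gene and condition, a library was looked for that stood apart from the other three by Dixon's test at 95%, which chance passes in about 1 of 20 groups. There were 6. MT2A was 50.5 CPM in cytokine library D and 46.6 to 47.1 CPM in the other cytokine libraries, a gap that is small beside the change from control. MT1X was 2.50 CPM in cytokine library B and 0.906 to 1.15 CPM in the others.

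Among the other genes, cytokine library C was high for DUSP1 at 112 CPM (73.1 to 77.9 in the others), HERPUD1 at 179 CPM (136 to 139) and SLC39A3 at 28.1 CPM (23.3 to 24.1). Control library C was high for TSC22D3 at 34.7 CPM (22.9 to 24.5). No difference of a response between the 2 series of libraries was called for the 3 metallothioneins.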

How the results depend on the processing

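MT2A was called higher in all 20 alternatives, with log2 fold changes of 4.96 to 6.54, and MT1X in all 19 that tested it, at 0.78 to 2.07. MT1F was called in 14 of 20, at 0.52 to 1.08. Leaving out 1 library gave 5.97 to 6.31 for MT2A, 1.39 to 1.92 for MT1X and 0.61 to 0.99 for MT1F, and the 6 calls of MT1F lost there have adjusted p-values up to 0.0898 (limma). The difference in response between MT2A and MT1X was then 4.10 to 4.89 and that between MT2A and MT1F 5.29 to 5.44, with adjusted p from 0.0571 to 0.0857 (exact permutation test), since 3 against 4 libraries cannot pass 0.05. That between MT1X and MT1F was 0.40 to 1.25, with adjusted p from 0.0571 to 0.457 (exact permutation test), under the same limit. With the pairs as a replicate block the log2 fold changes of limma were 6.20, 1.68 and 0.83, and no call of the 3 genes changed. No direction of the 3 genes reversed in the alternatives run. Of the 43 other named genes 30 were called, and 22 of these kept call and direction in every alternative. The low counts of MT1X and MT1F in control libraries, 7 to 79 reads, limit how well their fold changes are known. The comparison of MT1E with the other genes was not run.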
